A study of Mus musculus with 20 samples.

Results

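DNA repair enzymes were followed in mouse livers after more than a year of gamma irradiation. The set held 38 genes chosen by name, from the recombination, end-joining, base excision, mismatch, nucleotide excision, direct reversal and crosslink repair pathways. A probe set annotated with that single gene symbol was found for 36 of them, and for each gene the probe set with the highest mean signal over all 20 arrays was used. Of these, 32 reached a mean signal of 84.9, the median over probe sets, and were tested together with all other such genes, 11206 in total. Brca1, Palb2, Mutyh and Fancd2 lay below that level and are described by their signals, and Tdg and Xrcc2 were not analysed here.

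All animals were male C57BL/6J mice that entered at 8 weeks of age, with no transgene or other treatment given in the labels. In experiment 2, lasting 401 days, 1 pool of RNA from 6 unirradiated mice was set beside groups that received 137Cs gamma rays at 0.05 (low), 1.00 (medium) or 20.0 mGy per day (high), to cumulative doses of 20, 401 and 8015 mGy. In experiment 1, lasting 485 days, 1 pool from 3 unirradiated mice was set beside groups at 0.042, 0.858 and 16.6 mGy per day, to 20.6, 416 and 8030 mGy. Irradiation ran 22 h per day, as given for experiment 1, each irradiated group had 3 mice on 1 array each, and livers were taken when irradiation ended. The pools leave the spread among unirradiated mice unmeasured, so their contrasts rest on a spread estimated mostly from the irradiated mice.

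Ionising radiation oxidises bases and breaks one or both DNA strands. Oxidised bases are cut out by glycosylases and the gap is filled and sealed by an endonuclease, a polymerase and a ligase, while Parp enzymes and the scaffold protein Xrcc1 handle breaks in one strand. Breaks through both strands are rejoined by the Ku proteins with Prkdc, Xrcc4 and Lig4, or copied from the sister chromatid by recombination, which is largely limited to dividing cells. Adult hepatocytes rarely divide, and many repair proteins are regulated by modification and recruitment to the lesion, which transcript arrays do not read.

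The defining hepatocyte markers were strong on every array, with a signal of 51943 to 85184 for Alb, the albumin gene. Array medians ran from 81.3 to 105. Signals of different probe sets are not compared with each other here, because probes differ in how well they bind. In whole liver, fewer cells of a type and less RNA per cell cannot be told apart. Proliferation genes, with which several repair genes are co-expressed in dividing cells, had a summed signal of 5886 to 6099 in the pools, 5065 to 6508 in low, 5085 to 6731 in medium and 5181 to 5708 in high dose-rate mice (34 of 36 list genes).

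The members were measured with very different precision. The spread between mice of 1 group, as a pooled SD of log2(signal + 7.12) over the 6 irradiated groups, had a median of 0.24 over the 32 members and also 0.24 over all 11206 genes. It was smallest for Xrcc6, the Ku70 subunit of the end-binding Ku dimer (0.13), followed by Msh6, a mismatch recognition protein (0.13), and Neil1, a glycosylase for oxidised pyrimidines (0.15). Xrcc6 signals stayed between 571 and 793 in all 18 mice. The spread was largest for Xrcc3, a recombinase paralogue (0.64), and Fen1, the flap endonuclease (0.99), whose signals reached from 126 to 1166. A further Fen1 probe set ran from 92.4 to 224 over the arrays, so the width was not shared by both. The dot plot of all members shows these widths beside each other.

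**Figure D1:**
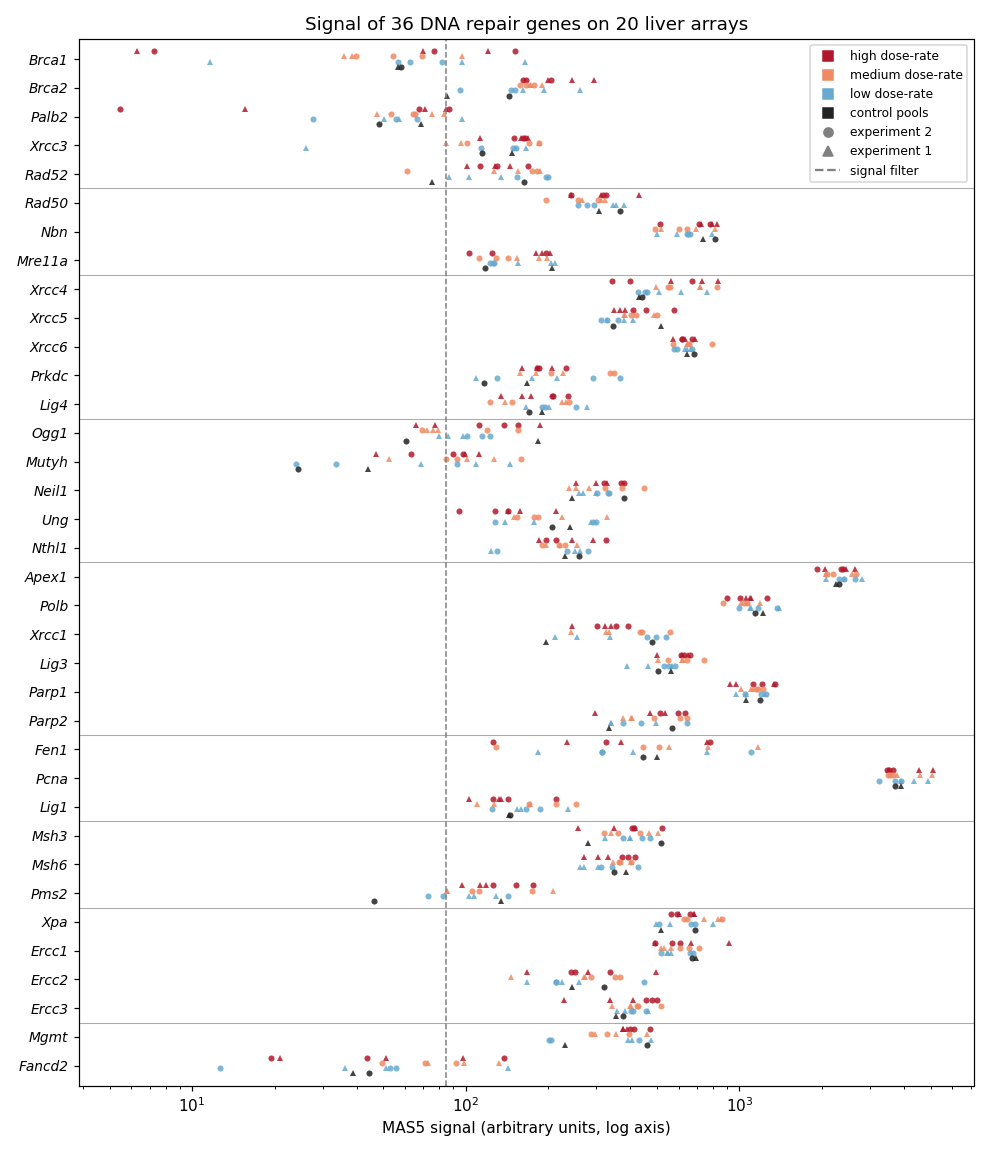
MAS5 signal (log axis) of the 36 measured repair genes on all 20 arrays, coloured by dose level, with circles for experiment 2 and triangles for experiment 1. Lines separate the repair pathways and the dashed line is the signal filter at 84.9, below which the means of Brca1, Palb2, Mutyh and Fancd2 lie. Levels overlap for most genes.

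Whether a year of irradiation left repair genes at another level than in unirradiated liver was asked first at the high dose-rate. None of the 32 members passed the threshold (limma, Benjamini-Hochberg adjusted p under 0.05 over all genes), against 0.0803% of all genes (9 of 11206). At an unadjusted p under 0.05 there was 1 member, against 7.24% of all genes. The median member difference was 0.036 on the log2 scale, beside 0.0074 over all genes, with 20 members above and 12 below 0. The 95% interval of the difference lay wholly within 2-fold in either direction for 26 of 32 members (81.2%) and for 80.4% of all genes.

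Among recombination genes, Brca2, which loads the recombinase onto DNA ends, had the smallest unadjusted p of the set. In experiment 2 its signals were 204, 162 and 166 in high dose-rate mice, against 144 in the pool. In experiment 1 they were 200.0, 294 and 245, against 85.7. All 6 mice lay above the pool of their experiment, as was so for 8.55% of all genes. The difference was 0.86 ± 0.27 (SE, 6 mice against 2 pools, limma adjusted p = 0.393), and it was 0.28 ± 0.34 within experiment 2 and 1.43 ± 0.34 within experiment 1. Without the experiment 1 pool, whose signal was the lowest of all 20 arrays, the difference was 0.31. With pools weighted by their number of mice, the experiment 1 difference passed the threshold (1.43, adjusted p = 0.0033). That weighting also raised the count over all genes for high against control, in the model of both experiments, from 9 to 374. The count over all genes within experiment 1 was not made with weighted pools. The weighting takes a pool as more precise than a single mouse, which these arrays cannot show. Rad52, a strand-annealing protein, was 0.20 ± 0.37 and Xrcc3 0.21 ± 0.45, both with intervals across 0.

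The promoter of Brca2 is shown because no other member had as small a p against the pools. It is the 250 bases before the RefSeq start, 5′ to 3′, on the plus strand of GRCm38.p6 at chr5:150522371-150522620, with motif matches in capitals.
Brca2: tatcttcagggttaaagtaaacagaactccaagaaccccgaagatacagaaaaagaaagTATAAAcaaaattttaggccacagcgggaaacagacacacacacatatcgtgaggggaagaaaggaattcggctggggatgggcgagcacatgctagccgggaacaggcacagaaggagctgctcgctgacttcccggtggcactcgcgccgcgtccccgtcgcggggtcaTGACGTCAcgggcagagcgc
The capitals mark a TATAAA match and a TGACGTCA match, the cyclic AMP response element. TGACGTCA on either strand occurred in 2 of 31 member promoters in the RefSeq table (6.45%) and in 2.01% of 17491 protein-coding promoters, and TATAAA in 9.68% and 12.4%. A match describes the letters and is not evidence of binding.

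The MRN complex detects and trims ends. Its Rad50 gene was at -0.13 ± 0.20 (95% interval -0.55 to 0.29), Nbn at -0.11 ± 0.19 (-0.50 to 0.28) and Mre11a at 0.045 ± 0.23 (-0.44 to 0.53). Among end-joining genes the Ku subunits Xrcc5 (-0.021 ± 0.19) and Xrcc6 (-0.069 ± 0.12) had 95% intervals of -0.41 to 0.37 and -0.32 to 0.18, so a change as large as 1.5-fold was outside both for the mean of the experiments. For Xrcc5 that mean joins values of opposite sign, 0.46 ± 0.23 in experiment 2 and -0.50 ± 0.23 in experiment 1. The kinase gene Prkdc (0.43 ± 0.33), the ligase partner Xrcc4 (0.37 ± 0.25) and the ligase Lig4 (0.025 ± 0.27) were less closely bounded.

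Of the glycosylases, Ung, which removes uracil, was the member lowest against the pools. Its signals were 128, 94.7 and 143 in high dose-rate mice of experiment 2, against 206 in the pool, and 158, 142 and 213 in experiment 1, against 241. All 6 mice were below their pool, as was so for 7.89% of all genes, and the difference was -0.62 ± 0.34 (adjusted p = 0.741). Ogg1, which removes oxidised guanine, was 0.10 ± 0.41, Neil1 0.079 ± 0.16 and Nthl1, another glycosylase for oxidised pyrimidines, -0.036 ± 0.28.

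Of the enzymes that follow the glycosylases, Apex1, Parp1, Polb, Pcna and Lig3 had standard errors below the member median and Xrcc1, Lig1 and Fen1 above it. Apex1, the endonuclease that cuts at the emptied site, was 0.0064 ± 0.13 with an interval of -0.27 to 0.28. Parp1, the break sensor, was 0.027 ± 0.13 (-0.24 to 0.29) on its main probe set. Further Parp1 probe sets above the filter were -0.29 ± 0.18 and 0.29 ± 0.17. The gap-filling polymerase Polb was -0.15 ± 0.14 (-0.43 to 0.14) on its main probe set. The further Polb probe sets all went the other way (1.18 ± 0.24, 0.38 ± 0.32 and 0.18 ± 0.15). The first of them is described with the other probe sets. Pcna, the sliding clamp and a gene raised by p53, was 0.045 ± 0.13 (-0.22 to 0.31). Lig3, the partner of Xrcc1, was 0.19 ± 0.15, Xrcc1 0.065 ± 0.23, Parp2 0.17 ± 0.21 and the replicative ligase Lig1 -0.06 ± 0.29. Fen1 was -0.38 ± 0.66, with an interval of -1.77 to 1.00.

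Mismatch repair genes were 0.015 ± 0.22 (Msh3), -0.09 ± 0.16 (Msh6) and 0.63 ± 0.39 (Pms2, the nuclease subunit). Nucleotide excision genes were 0.075 ± 0.18 (Xpa, which verifies the lesion), -0.17 ± 0.19 (Ercc1, part of a nuclease), -0.0039 ± 0.34 (Ercc2) and 0.086 ± 0.19 (Ercc3, like Ercc2 a helicase of TFIIH). A further Ercc1 probe set above the filter was 0.25 ± 0.20, opposite in sign to the main one. Mgmt, which takes alkyl groups off guanine, was 0.30 ± 0.29. The forest plot of differences from the pools gives all 32 with their intervals.

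**Figure D2:**
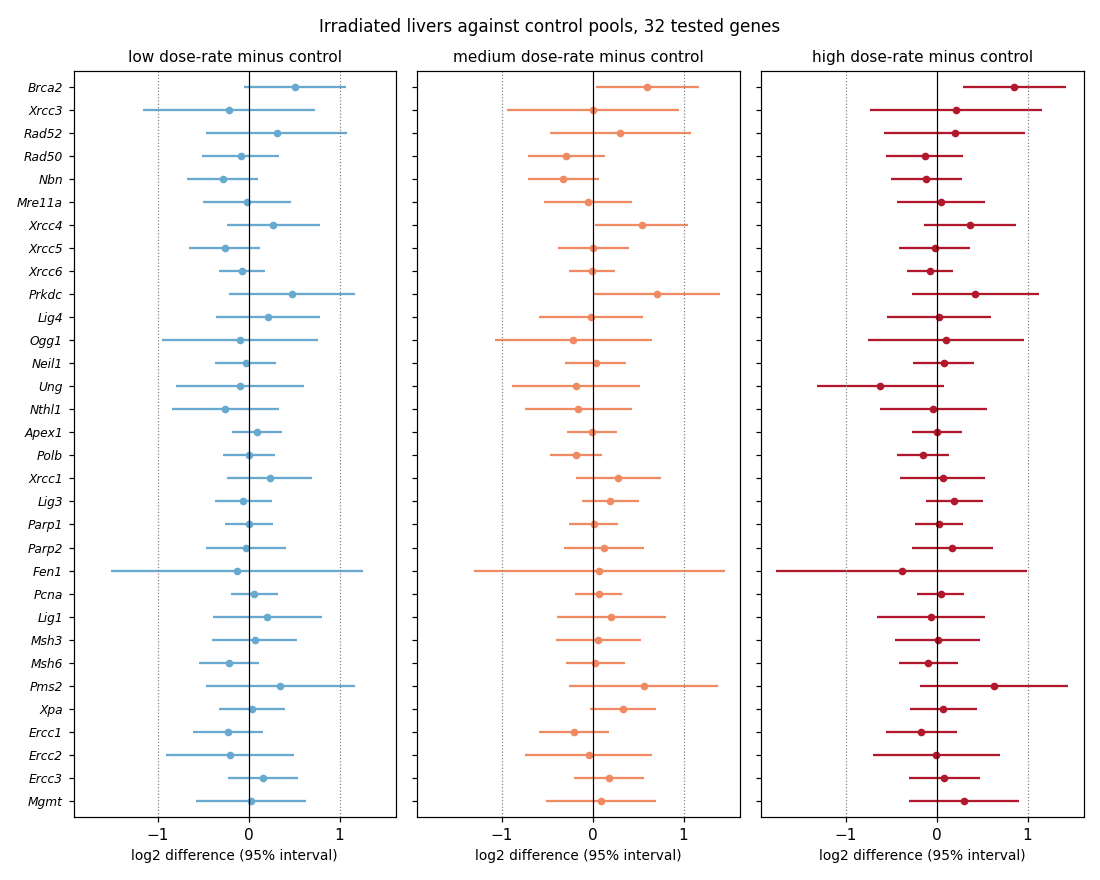
Log2 difference from the control pools for the 3 dose-rates (dots) with 95% intervals (lines) for the 32 tested repair genes, 6 mice against 2 pools each. Dotted lines stand at 2-fold. The interval lies off 0 for Brca2 at the high and for Brca2, Xrcc4 and Prkdc at the medium dose-rate, and no gene passed the adjusted threshold.

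The same 2 pools served the medium and low dose-rates. At the medium dose-rate none of the 32 members passed on its main probe set (adjusted), against 0.0357% of all genes, and 3 had an unadjusted p under 0.05, all higher, against 6.05% of all genes in either direction and 3.61% higher. These were Brca2 (0.60 ± 0.27, adjusted p = 0.79), Xrcc4 (0.54 ± 0.25, adjusted p = 0.796) and Prkdc (0.70 ± 0.33, adjusted p = 0.815). The median over members was 0.031, beside 0.011 over all genes.
Xrcc4 signals were 549, 560.0 and 829 in medium dose-rate mice of experiment 2, against 440.3 in the pool, and 496, 717 and 720.4 in experiment 1, against 429.8. All 6 mice were above, as for 9% of all genes. Prkdc signals were 204, 348 and 337 in experiment 2, against 117, and 226, 158 and 180.4 in experiment 1, against 167. The separation of Prkdc from the pool was thus in experiment 2, where the difference was 1.26 ± 0.46, whereas it was 0.15 ± 0.46 in experiment 1 with mice on both sides of the pool.

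At the low dose-rate none of the members passed (adjusted), against 0.00892% of all genes. Members with an unadjusted p under 0.05 numbered 0, against 3.87% of all genes. Members were divided 16 above and 16 below 0, with a median of -0.0094, beside 0.00034 over all genes. The values nearest to the threshold were 0.51 ± 0.27 for Brca2, -0.29 ± 0.19 for Nbn, the MRN subunit that recruits the checkpoint kinase, and 0.47 ± 0.33 for Prkdc (adjusted p = 0.998 for each). Ercc3 was 0.16 ± 0.19 and above its pool in 6 of 6 mice, as were 5.21% of all genes.

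Dose levels were next compared with each other, where both sides were single mice. For high against low none of the members passed (adjusted, 0% of all genes), and 2 had an unadjusted p under 0.05, against 10.1% of all genes. Lig3 was 0.25 ± 0.11 (adjusted p = 0.42). Its signals were 611, 628 and 662 at the high dose-rate, against 552, 581 and 531 at the low, in experiment 2, and 498, 617 and 649, against 569, 463 and 389.9, in experiment 1. The groups did not overlap in experiment 2 and overlapped in experiment 1. The share of all genes apart in a single experiment was not counted. Ung was -0.52 ± 0.24 (adjusted p = 0.467), with 128, 94.7 and 143 at the high and 300.5, 291 and 128 at the low dose-rate in experiment 2. In experiment 1 Ung signals were 158, 142 and 213 at the high dose-rate, against 288, 139 and 178 at the low. The groups overlapped in both experiments. No member was apart in the same direction in both experiments, against 0.625% of all genes with the high group above and 0.607% with it below.

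For high against medium and medium against low none passed either (adjusted, 0% of all genes in both). Unadjusted p values under 0.05 were held by 1 member in the first, against 3.78% of all genes, and by 3 in the second, against 7.95%. Xpa was the gene of the first and the leading gene of the second. It was -0.26 ± 0.12 for high against medium (adjusted p = 0.999) and 0.30 ± 0.12 for medium against low (adjusted p = 0.582). In experiment 2 its signals were 688 in the control pool, 689, 509 and 667 at the low, 627, 643 and 861 at the medium and 661, 562 and 593 at the high dose-rate. In experiment 1 they were 517 in the control pool, 557, 496 and 802 at the low, 742, 860.0 and 835 at the medium and 601, 683 and 684 at the high dose-rate. The medium group was apart from the high group in experiment 1 only, and it overlapped the low group in both experiments. Xpa follows the circadian clock in mouse liver, as background. The clock list (17 genes tested of 20) had a median of 0.018 for medium against low and -0.027 for high against medium, with 0 genes called in either. Single clock genes ran from -0.84 (Per1) to 0.64 in the first and from -0.53 to 0.73 (Nfil3) in the second. The medians therefore do not show that the clock was alike in these groups. The part of the clock in the Xpa values was not tested.
The other genes under 0.05 for medium against low were Lig3 (0.25 ± 0.11) and Msh6 (0.24 ± 0.11).

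The means of log2 values of the 3 levels stood in the order low, medium, high from lowest to highest in both experiments for 3 of 32 members (Xrcc3, Nthl1 and Parp2), against 3.73% of all genes. The opposite order in both held for 0 members, against 3.57%. High minus low was 0.43 ± 0.32 for Xrcc3, 0.22 ± 0.20 for Nthl1 and 0.21 ± 0.15 for Parp2, and none had an unadjusted p under 0.05. The Xrcc3 order rested on a low dose-rate mouse of experiment 1 at 26.1. Without it the difference was 0.066 ± 0.22, and the low mean signal of experiment 1 was 159, above the medium mean of 122 and the high mean of 147. A further Xrcc3 probe set, with a mean signal of 80.7 below the filter, gave 1.53 for high against low. For medium against low it gave 1.32. Whether these values rest on the same mouse was not tested. On the signal scale the Nthl1 mean of experiment 2 was 215 ± 76.6 at the low and 213 ± 20.7 at the medium dose-rate (SD, n = 3 each), so its order held for log2 values only.

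**Figure D3:**
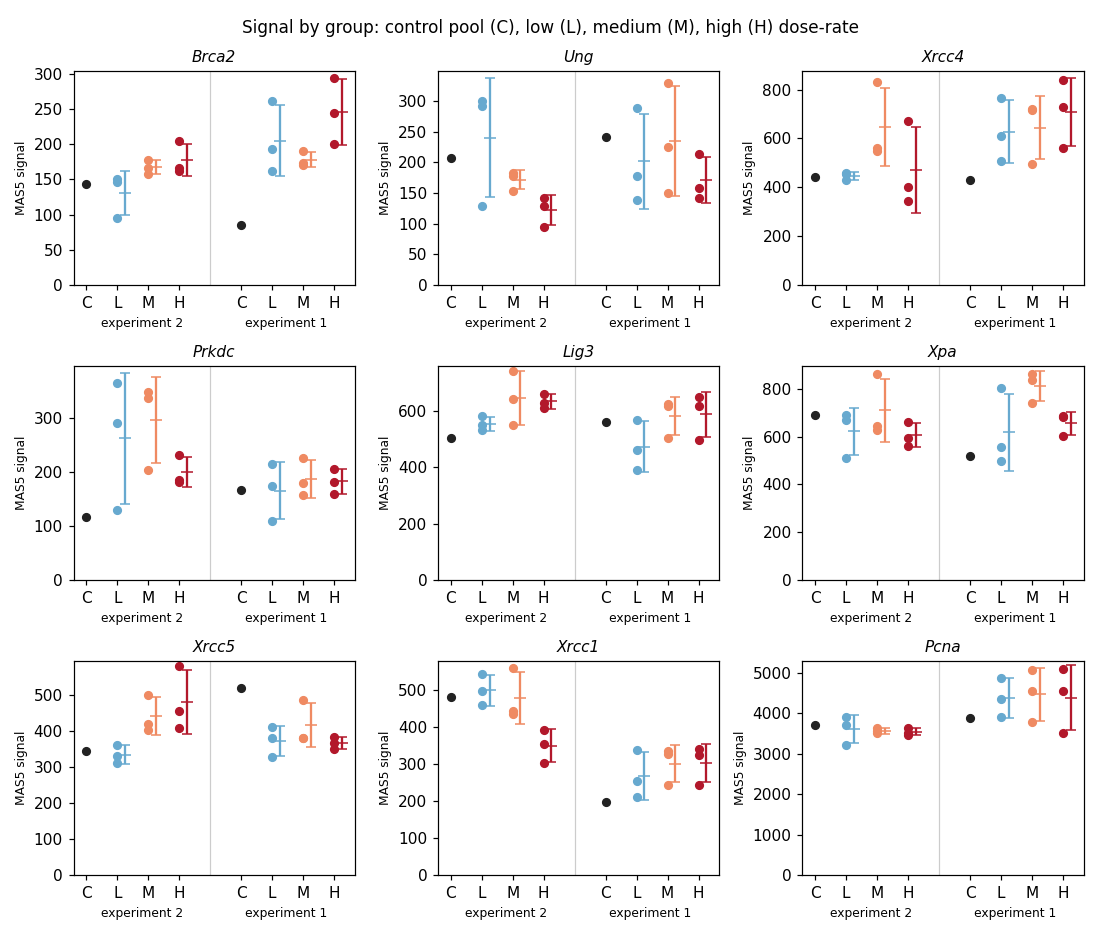
MAS5 signal of 9 repair genes by group, with experiment 2 on the left of each panel and experiment 1 on the right; dots are arrays and bars are the mean ± SD of 3 mice. The control is 1 pool, so it has no bar. All irradiated mice of experiment 1 lie above its pool for Brca2, and the Xrcc1 mean is higher in experiment 2 than in experiment 1 at every level.

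The experiments gave different pictures for several members. Comparing high dose-rate mice with the pool separately in each experiment, the sign was the same in both for 11 of 32 members (34.4%) and for 55.8% of all genes. For high against low the shares were 16 of 32 and 54.3%. In the test of the difference between experiments, none of the members passed for high against control (adjusted, 0.00892% of all genes), while 5 had an unadjusted p under 0.05, against 3.65% of all genes. Each of these rests on 1 pool per experiment.

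Xrcc5, which encodes the Ku80 subunit, had high minus control values of 0.46 ± 0.23 in experiment 2 and -0.50 ± 0.23 in experiment 1 (difference 0.95 ± 0.32, adjusted p = 0.998). In experiment 2 its signals were 344 in the control pool, 361, 329 and 312 at the low, 419.7, 500.1 and 402 at the medium and 455, 579 and 407 at the high dose-rate. In experiment 1 they were 519 in the control pool, 379, 328 and 409 at the low, 379, 381 and 486 at the medium and 365, 349 and 383 at the high dose-rate. The high dose-rate mice were all above the pool in experiment 2 and all below it in experiment 1. Xrcc6, its Ku partner, was -0.10 ± 0.18 and -0.034 ± 0.18 in the same comparisons.

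Xrcc1 went the other way, with -0.46 ± 0.28 in experiment 2 and 0.59 ± 0.28 in experiment 1 (difference -1.05 ± 0.39, adjusted p = 0.998). Brca2 was positive in both (difference -1.15 ± 0.48). Pms2 was 1.56 ± 0.51 and -0.30 ± 0.51, and its pool signal of 46.1 in experiment 2 was the lowest of its 20 values. Ogg1 was 1.06 ± 0.53 and -0.85 ± 0.53, with pool signals of 60.6 in experiment 2 and 184 in experiment 1. For both genes the experiment 2 pool stood below the signal filter of 84.9, where a fold is uncertain.

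For high against low, where no pool is used, 3 members had an unadjusted p of the difference under 0.05, against 7.07% of all genes, and none passed adjusted (0% of all genes). Mgmt was 0.69 ± 0.23 in experiment 2 and -0.15 ± 0.23 in experiment 1 (difference 0.85 ± 0.33, adjusted p = 0.662). In experiment 2 its signals were 458 in the control pool, 204, 201 and 429 at the low, 327, 394 and 288 at the medium and 413, 399 and 469.5 at the high dose-rate, so 2 of 3 low dose-rate mice were the lowest and the last lay among the high dose-rate mice. Without that last mouse the experiment 2 difference was 1.05 and passed the threshold (adjusted p = 0.0335). Leaving out the same mouse also raised the count over all genes for high against low, in the model of both experiments, from 0 to 20. The count over all genes within experiment 2 was not made without that mouse. The Mgmt call rests on dropping the low dose-rate mouse with the opposing value. In experiment 1 Mgmt signals were 231 in the control pool, 406, 392 and 476 at the low, 296, 459 and 355 at the medium and 375, 376 and 389 at the high dose-rate. Xrcc1 was -0.51 ± 0.19 and 0.18 ± 0.19 and Xrcc5 0.50 ± 0.16 and -0.02 ± 0.16. Within experiment 2 the high and low groups of Xrcc1 and of Xrcc5 did not overlap, and in experiment 1 they did. These genes were named for their unadjusted p, and no share over all genes was counted for groups apart in a single experiment.

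**Figure D4:**
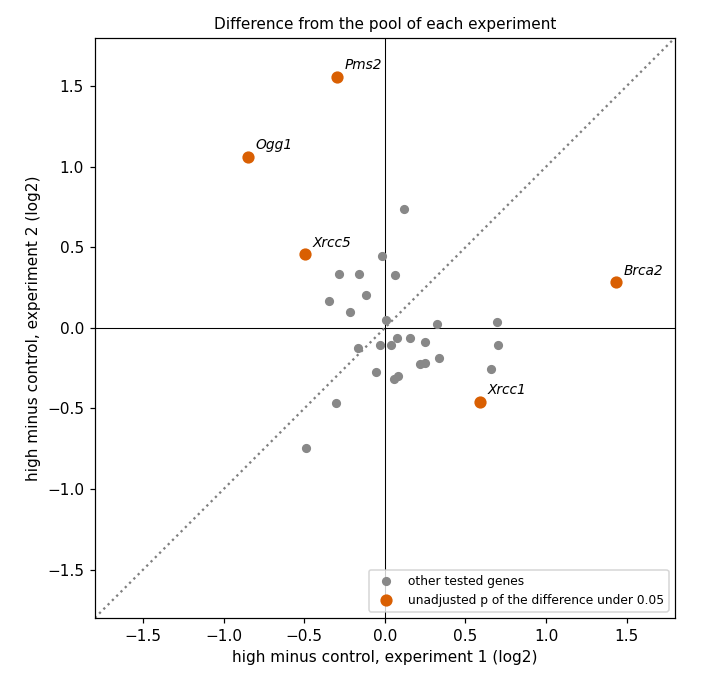
Log2 difference of high dose-rate mice from the control pool in experiment 1 (horizontal axis) and experiment 2 (vertical axis) for the 32 tested repair genes, with equality as the dotted line. Marked genes had an unadjusted p under 0.05 for the difference; Pms2, Ogg1 and Xrcc5 lie above 0 in experiment 2 and below 0 in experiment 1, and Xrcc1 the reverse.

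With 1 probe set per gene, the only contrast that called members at an adjusted p under 0.05 was between the experiments themselves, which differed in duration, dose-rates and the set of mice at once, so that these cannot be told apart. Of 32 members, 4 were higher and 2 lower in experiment 2 at an adjusted p under 0.05, which is 18.8% of members, against 42.7% of all genes. Over all genes 27.9% were called higher and 14.8% lower. The median member difference was 0.04 and that of all genes 0.073. The 3′ over 5′ probe set ratio, a sign of RNA quality, was higher in experiment 2. For Gapdh it lay at 0.871 to 0.993 in experiment 2, against 0.69 to 0.769 in experiment 1. For Actb it lay at 2.25 to 2.61 and 1.85 to 2.15 in that order. Of the stellate cell markers, 6 of 9 tested were called higher in experiment 2, with a summed signal of 16382 to 22625, against 12143 to 22594 in experiment 1. Of the hepatocyte markers, 3 of 8 were called higher and 1 lower, of the endothelial markers 3 of 8 higher and 0 lower, and of the clock genes 7 of 17 higher and 2 lower. The part of any of these in the values below was not tested.

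Base excision and break-processing genes made up 3 of the 4 that were higher. These came from 4 glycosylases and 6 processing genes tested, a share near the 27.9% of all genes called higher. Further probe sets of Parp1 and Polb, also processing genes, were called lower and are given with the other probe sets. Xrcc1 rose by 0.66 ± 0.12 in experiment 2 (adjusted p = 0.000191), and every group mean was higher there. Its signals in experiment 2 were 480.4 in the control pool, 541, 496 and 458 at the low, 442, 559 and 433 at the medium and 302, 392 and 353 at the high dose-rate. In experiment 1 they were 196 in the control pool, 338, 255 and 211 at the low, 334, 243 and 326 at the medium and 244, 324 and 339 at the high dose-rate. The high dose-rate groups overlapped, and the pools and the low and medium groups did not. Parp2, which like Parp1 makes poly(ADP-ribose) at breaks, rose by 0.46 ± 0.12 (adjusted p = 0.00297), with pool signals of 569 in experiment 2 and 335 in experiment 1. Neil1 rose by 0.38 ± 0.088 (adjusted p = 0.00162), with pools at 379 and 245. Ercc3 rose by 0.28 ± 0.10 (adjusted p = 0.0291), a call that was lost without any 1 of 3 mice of experiment 2, with no signal filter and with quantile normalization.

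Mre11a, the nuclease of the MRN complex, fell by 0.53 ± 0.13 in experiment 2 (adjusted p = 0.00197). Its signals in experiment 2 were 117 in the control pool, 127, 122 and 125 at the low, 129, 112 and 143 at the medium and 196, 102 and 125 at the high dose-rate. Those of experiment 1 were 207 in the control pool, 206, 211 and 156 at the low, 153, 186 and 198 at the medium and 190.1, 179.9 and 203 at the high dose-rate. A high dose-rate mouse of experiment 2 at 196 lay within the range of experiment 1. The other MRN genes were -0.20 ± 0.11 (Rad50, adjusted p = 0.151) and -0.099 ± 0.10 (Nbn, adjusted p = 0.459). Pcna fell by 0.27 ± 0.069 (adjusted p = 0.00312). Its signals in experiment 2 were 3707 in the control pool, 3902, 3226 and 3711 at the low, 3503, 3559.7 and 3638 at the medium and 3469, 3642 and 3514 at the high dose-rate. Those of experiment 1 were 3889 in the control pool, 3905, 4349.8 and 4873 at the low, 3771, 4560.4 and 5064 at the medium and 3512, 5095 and 4546 at the high dose-rate. The ranges of both experiments overlapped. With arrays centred on their medians Pcna did not pass (-0.20, adjusted p = 0.0934).
No member was fully apart between the 10 arrays of each experiment, against 6.11% of all genes with experiment 2 above and 2.31% with it below.

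The promoters of 4 of these 6 genes are printed for comparison, as the 250 bases before the RefSeq start of GRCm38.p6, 5′ to 3′. Xrcc1 lies on the plus strand at chr7:24546449-24546698, Parp2 on the plus strand at chr14:50807666-50807915, Pcna on the minus strand at chr2:132253181-132253430 and Mre11a on the plus strand at chr9:14784404-14784653. Capitals mark the GC box GGGCGG, the CCAAT box, the E-box CACGTG, the cyclic AMP response element or the TATAAA box on either strand.
Xrcc1: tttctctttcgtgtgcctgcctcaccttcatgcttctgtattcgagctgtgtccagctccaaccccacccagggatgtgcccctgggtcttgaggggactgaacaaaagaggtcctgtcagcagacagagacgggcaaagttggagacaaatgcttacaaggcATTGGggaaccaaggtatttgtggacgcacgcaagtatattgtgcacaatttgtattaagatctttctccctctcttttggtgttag
Parp2: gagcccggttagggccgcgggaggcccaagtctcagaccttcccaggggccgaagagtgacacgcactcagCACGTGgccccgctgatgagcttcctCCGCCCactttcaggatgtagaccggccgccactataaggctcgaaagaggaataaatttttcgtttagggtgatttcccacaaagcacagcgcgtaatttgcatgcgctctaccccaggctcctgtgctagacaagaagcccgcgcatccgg
Pcna: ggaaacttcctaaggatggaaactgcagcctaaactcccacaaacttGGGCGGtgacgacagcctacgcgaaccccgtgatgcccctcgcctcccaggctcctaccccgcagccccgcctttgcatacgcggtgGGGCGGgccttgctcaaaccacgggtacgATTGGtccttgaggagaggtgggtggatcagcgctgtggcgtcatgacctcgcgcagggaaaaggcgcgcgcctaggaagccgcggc
Mre11a: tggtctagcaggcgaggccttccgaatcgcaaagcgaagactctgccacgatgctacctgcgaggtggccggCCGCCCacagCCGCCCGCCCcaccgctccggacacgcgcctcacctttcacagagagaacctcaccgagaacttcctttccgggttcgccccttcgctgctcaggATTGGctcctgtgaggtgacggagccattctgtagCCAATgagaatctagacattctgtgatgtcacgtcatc
Pcna and Mre11a hold GC boxes and CCAAT. Parp2 holds a GC box and an E-box, and Xrcc1 holds CCAAT alone of the 5 motifs. Neil1, also called between experiments and not printed, holds TATAAA alone. Whether any motif goes with the direction of the difference was not tested. GC boxes occurred in 20 of 31 member promoters (64.5%) and in 42.7% of all 17491. Member promoters were also richer in G and C, with a median of 58.8%, against 55.2% over all, and in CpG, with a median count of 18, against 10. The part of this in the motif shares was not tested. CCAAT occurred in 48.4% and 36.3%, and the E-box in 19.4% (Apex1, Lig3, Parp1, Parp2, Tdg and Xrcc5) and 6.64%. GGGCGG matches can overlap each other, and the table had no entry for Xrcc2, Rad50, Nbn, Prkdc, Polb, Ercc3 and Fancd2.

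**Figure D5:**
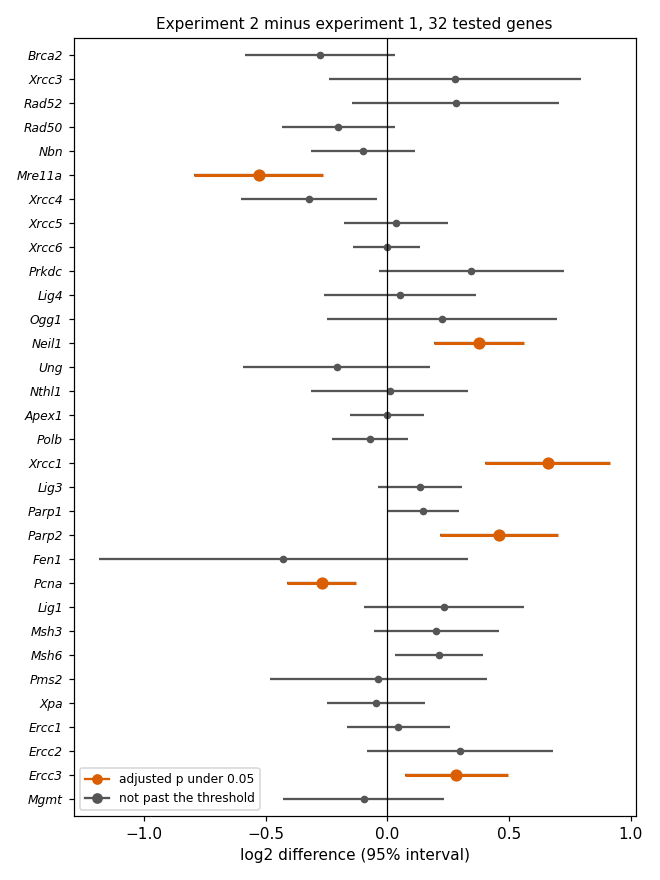
Log2 difference of experiment 2 minus experiment 1 (dots) with 95% intervals (lines) for the 32 tested repair genes, 10 arrays in each experiment with dose level in the model. The 6 genes past the adjusted threshold are marked; Xrcc1 has the highest and Mre11a the lowest value.

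Several members had more than 1 probe set, which gave a second reading. For 12 tested genes, 19 further probe sets passed the signal filter. Their difference had the sign of the main probe set in 8 of 19 cases for high against control, 12 of 19 for high against low and 10 of 19 for experiment 2 against experiment 1. In a limma fit of all 19506 probe sets above the filter, a Polb probe set with a mean signal of 162 was the 1 of 51 member probe sets called in any of the 6 contrasts of levels. It is named after its values were seen. At the medium dose-rate its signals were 209.8, 193 and 171 in experiment 2, against 65 in the pool, and 217, 221 and 182 in experiment 1, against 84.8. It rose by 1.34 ± 0.24 (adjusted p = 0.0377 over those probe sets), where 0.041% of them were called. At the high dose-rate its signals were 178, 209 and 142 in experiment 2 and 198, 133 and 218 in experiment 1. The difference was 1.18 ± 0.24 at the high (adjusted p = 0.0843) and 0.81 ± 0.24 at the low dose-rate (adjusted p = 0.805). Both pools were below the filter level of 84.9. The main Polb probe set was -0.18 ± 0.14 for medium against control, and the remaining Polb probe sets were 0.57 ± 0.32 and 0.13 ± 0.15, so the probe sets of this gene disagreed.

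Disagreement was also seen between experiments. Further probe sets of Xrcc4 (-0.76 ± 0.10, adjusted p = 3.14e-06), Parp1 (-0.56 ± 0.094, adjusted p = 5.27e-05) and Polb (-0.41 ± 0.082, adjusted p = 0.000414) were called lower in experiment 2. The main probe sets of these genes were -0.32 ± 0.13, 0.15 ± 0.07 and -0.073 ± 0.075 and were not called. The other Mre11a probe set was -0.68 ± 0.33 (adjusted p = 0.0994), the sign of the main one. For medium against control the other Xrcc4 probe set gave 0.04 ± 0.18, against 0.54 ± 0.25 on the main one. For high against low the 3 further Lig3 probe sets above the filter gave 0.16, -0.065 and 0.054. Pms2, high against control, was -0.65 on its other probe set above the filter, opposite to the main one. Brca2, Ung, Prkdc, Xrcc1, Xrcc5, Parp2, Pcna and Mgmt had 1 probe set each.

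The members under the signal filter read as follows. Brca1, which prepares ends for recombination, ranged from 6.3 to 165 over the arrays, and Palb2, which joins Brca1 to Brca2, from 5.44 to 96.8. Fancd2, the crosslink repair protein that is ubiquitinated on damage, ranged from 12.6 to 142. Mutyh, which removes adenine paired with oxidised guanine, had 97.6, 63.2 and 89.9 in high dose-rate mice of experiment 2, against 24.5 in the pool, and 112, 99.4 and 47 in experiment 1, against 44.1. Both pools were below the high dose-rate mice of their experiment. The share of genes with such a separation was not counted without the filter. Low dose-rate mice had 23.9, 33.7 and 93.2 in experiment 2, on both sides of the pool, and 109, 145 and 68.6 in experiment 1. In a limma fit without the filter the Mutyh difference was 1.14 ± 0.52 for high (adjusted p = 0.765) and 1.38 ± 0.52 for medium against control (adjusted p = 0.772).

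Other genes of the repair pathways were listed beside the members. Of 117 further symbols listed, 82 were tested, and 0 passed in any of the 6 contrasts of dose levels (limma, adjusted p). At an unadjusted p under 0.05 there were 2 higher and 1 lower for high against control, of 82, beside 7.24% of all genes in either direction, with Mad2l2, a bypass and end-protection protein, at 0.67 ± 0.17 (adjusted p = 0.243). For high against low there were 3 higher and 3 lower, beside 10.1% of all genes, led by Poll, an end-joining polymerase, at -0.53 ± 0.19 (adjusted p = 0.297). Between experiments 12 of 82 were called higher and 16 lower, beside 27.9% and 14.8% of all genes, led by Ccnh, a TFIIH kinase subunit, at -0.86 ± 0.056. Targets of p53 (22 tested of 26) had 0 called genes in the 6 dose contrasts and a median of 0.059 for high against control. At an unadjusted p under 0.05, 6 of these 22 were higher and 2 lower for high against low, beside 10.1% of all genes. Bbc3 led them at 0.61 ± 0.18 (adjusted p = 0.194). For high against medium 3 were higher and 0 lower, beside 3.78% of all genes, and for high against control 1 was higher and 0 lower. The proliferation list (17 tested of 36) also had 0 called genes in the 6 dose contrasts, with a median of -0.052 for high against control. The clock list (17 tested of 20) had 2 genes called lower for high against control, led by Usp2, a clock-driven deubiquitinase, at -2.26 ± 0.35 (adjusted p = 0.00836), and a median of -0.36. Its part in the member values against the pools was not tested.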

How the data were processed

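RNA of 20 mouse liver samples was measured on Affymetrix arrays. The authors deposited a linear intensity, the MAS5 signal per probe set, per the submitters' processing notes. No source used here gives the software version. All arrays had a trimmed mean of 500.0, so they had been scaled alike. The table held 45101 probe sets, with 0 columns of no sample, and no 2 arrays were identical. Gene names came from the platform annotation.

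Signals were transformed as log2(signal + 7.12), the 10th percentile of all signals, which understates changes of low genes. One probe set per gene, the highest mean, was kept where that mean reached the median of all probe sets (84.9). A linear model of limma 3.58.1 (R 4.3.3, variance trend) with dose level and experiment was fitted to all 20 arrays, two-sided, with Benjamini-Hochberg adjustment over 11206 genes. Differences within and between experiments came from a model of the 8 group means. Errors are standard errors of a contrast unless called SD. P-values rest on the spread among these arrays, which is biological for mice of 1 group and unknown for pools. Precision is limited by the number of arrays, most of all against the 2 pools. The procedure was tested on simulated data.

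The members and lists were chosen with earlier results of these data known. Genes outside the members were named when past the threshold or with the smallest p of their list. Tested alternatives were the filter, pseudocount, probe set rule, scaling, variance trend, left-out arrays, replicate block, pool weights and single experiments. Labels give mice of different groups the same numbers. Same-numbered mice of 1 experiment had correlations of deviations from -0.15 to 0.31, over 0.1 in 7 of 18 pairs. The main fit did not use the numbers as pairs, and the replicate block was run as an alternative. Whether a number marks shared handling was not tested.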

Additional observations from a re-analysis of the deposited data

How the results depend on the processing

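Across 36 alternatives, 20 of which left out 1 array each, with 1 value per gene, the number of members called stayed at 0 for all 6 contrasts of dose levels in every setting in which they could be fitted, left-out arrays included, and for the difference of high minus low between experiments. For the difference of high minus control between experiments it was 0 in all but 1, the weighting of pools by their number of mice, which gave 1 (Xrcc5, adjusted p = 0.0344). Within single experiments that weighting gave 6 calls against the pools in place of 0: Brca2 at all 3 levels of experiment 1 and, in experiment 2, Pms2 at the high and medium and Prkdc at the medium dose-rate. Leaving out arrays gave 0 to 1, the 1 being Mgmt, high against low in experiment 2 (1.05, adjusted p = 0.0335), without low mouse 3 of that experiment. The share of all genes called within single experiments was not counted for either of these settings. Between experiments the count was 6 and ran from 5 to 9 over all settings and over left-out arrays. Xrcc1, Neil1 and Parp2 passed in each, Mre11a in each that tested it, and Ercc3 was lost in 5, with no filter (adjusted p = 0.053), with quantile normalization (0.0831) and without medium mouse 1 (0.0543), high mouse 2 (0.0531) or high mouse 3 (0.0565) of experiment 2. Reversed signs, none of them of a called value, were -0.0096 for Pms2, high against control, with the mean of all probe sets, -0.14 when the pool of experiment 2 was left out (left-out arrays gave -0.14 to 1.40) and -0.30 in experiment 1 alone. For low against control they were -0.037 for Brca2 when the pool of experiment 1 was left out (-0.037 to 1.05 over left-out arrays), -0.15 with experiment 2 alone, and -0.058 for Prkdc in experiment 1 alone. The cause was not tested. Over all genes the count of 9 for high against control ran from 0 to 374, that of 4 for medium from 0 to 267 and that of 1 for low from 0 to 46, each highest with weighted pools, high against low from 0 to 20 around 0 (18 and 20 without low mouse 3 of experiment 1 and of experiment 2) and the difference of high minus control between experiments from 0 to 103 around 1. With the replicate number as a block on the irradiated arrays, 0 members were called in the 3 contrasts between levels, and the smallest member adjusted p was 0.395 for high against low, beside 0.432 on the same arrays with no block; 10 of 18 mice correlated best with mice of their own number. With every probe set above the filter tested on its own, the medium against control count was 1 (Polb, adjusted p = 0.0377) and that between experiments 9, and the other 5 contrasts of levels stayed at 0. The probe set fit, the fit on irradiated arrays alone and the alternatives for single experiments were added after the data were seen.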

Other observations

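Fen1 had the widest spread of the tested members, and its 2 probe sets disagreed about it. On the probe set with the higher mean, whose name marks probes that may bind other transcripts, signals reached from 126 to 1166 over the 18 mice. On the other they ran from 92.4 to 224 over the 20 arrays, and the correlation between both after removing dose level and experiment was -0.20. Over the 19 further probe sets above the filter this correlation ran from -0.36 to 0.69.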
